A study of Mus musculus with 6 samples.

Results

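Kruppel-like transcription factors are zinc finger proteins encoded by the Klf genes, and the 10 members described here were Klf2, Klf3, Klf4, Klf5, Klf6, Klf7, Klf9, Klf10, Klf13 and Klf15. They were the rows of the deposited table that carry these gene names, 10 of 24935 genes, and all 10 passed the filter of a mean normalized count of at least 10 that left 17778 genes to test. C57BL/6 pups of both sexes and their dams were kept in 85% oxygen (hyperoxia) or in room air (air) from postnatal day 2 (P2) to P14, and RNA of the left hippocampus was taken at P14. Each group had 3 animals with 1 library each, 6 libraries in all, and no genetic change was described in either group. The polyA-selected RNA was read on an Illumina NextSeq, and each value below is a normalized count, a read count divided by 1 size factor per library. The libraries are numbered 1 to 3 within a group as in the deposited columns, which do not name the animal, and every direction follows the group that these columns name. The sources used here do not settle beyond doubt that the 2 group names stand on the right columns, and the names were not tested against measured values. The paper that reported these data prints the mRNA change of some genes with the opposite sign. Its tables and its Discussion give Arc mRNA as higher in hyperoxia, although the wording of its Results calls Arc decreased, and these columns give it as lower. Were they exchanged, each rise given below would be a fall and each fall a rise, with the same size and p.

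Kruppel-like factors bind GC boxes and CACCC elements in DNA through zinc fingers near their carboxyl end, while their amino-terminal parts differ and recruit either coactivators or corepressors such as CtBP and Sin3. KLF2 and KLF4 are best known in blood vessels, where laminar flow induces them in endothelial cells through the MEK5, ERK5 and MEF2 route. In neurons the family is known for acting on the growth of axons, with KLF6 and KLF7 as promoters of growth and KLF4 and KLF9 as brakes, and KLF9, KLF13 and KLF15 respond to thyroid hormone or glucocorticoids.

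The DNA just before the start of 3 members is shown because the results turn on them: Klf4 was the member called between the groups, Klf2 is its partner in endothelial cells, and Klf9 had the most mRNA per length. Each line holds the 250 bases before the RefSeq start on GRCm38.p6, in the direction of the gene, with each GC box (GGGCGG or its complement) in capitals. The Klf4 stretch is chr4:55532476-55532725 on the minus strand, the Klf2 stretch is chr8:72318812-72319061 on the plus strand and the Klf9 stretch is chr19:23140976-23141225 on the plus strand.
Klf4: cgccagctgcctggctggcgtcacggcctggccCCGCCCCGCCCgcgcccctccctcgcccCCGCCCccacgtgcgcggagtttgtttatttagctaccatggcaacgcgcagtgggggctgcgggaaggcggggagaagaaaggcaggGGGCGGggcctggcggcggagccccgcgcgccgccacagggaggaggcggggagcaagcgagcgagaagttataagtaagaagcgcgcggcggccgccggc
Klf2: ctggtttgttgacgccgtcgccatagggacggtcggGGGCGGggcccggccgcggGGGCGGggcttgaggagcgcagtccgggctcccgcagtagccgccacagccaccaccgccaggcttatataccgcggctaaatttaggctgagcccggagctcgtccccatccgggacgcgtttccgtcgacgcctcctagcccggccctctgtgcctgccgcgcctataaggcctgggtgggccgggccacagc
Klf9: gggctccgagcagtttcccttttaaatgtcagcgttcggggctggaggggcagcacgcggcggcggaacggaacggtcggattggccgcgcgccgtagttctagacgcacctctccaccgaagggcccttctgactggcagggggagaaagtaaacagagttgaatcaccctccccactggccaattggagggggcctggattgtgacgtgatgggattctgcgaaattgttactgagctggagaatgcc

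Klf4 held 4 GC boxes, 2 of them overlapping, Klf2 held 2 and Klf9 held none. Of the 8 members with such a stretch in the RefSeq table (all but Klf5 and Klf10), 7 held at least 1 GC box on either strand, against 32.7% of 32851 stretches of the same length. Klf3 held 6, Klf13 held 3, and Klf6, Klf7 and Klf15 held 1 each. The CACCC box (CACCC on either strand) was found in 6 of the 8, against 52.0% of all stretches, and neither Klf4 nor Klf6 held it. The CCAAT box (CCAAT on either strand) was found in 4 of the 8, with 4 copies before Klf6, 3 before Klf9, 2 before Klf13 and 1 before Klf15, against 33.8% of all stretches. No member held TATAAA, found in 12.4% of stretches, or the full cAMP response element TGACGTCA, found in 1.55%. The share of G and C was 74.0% before Klf4, 71.2% before Klf2 and 59.6% before Klf9, against a median of 52.4% over all stretches. A match is a run of letters and not a site of binding, and these motifs can overlap one another.

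The libraries held 30384052 to 38746972 reads on genes. The hyperoxia libraries differed from each other more than the air libraries did, with a chi-square per gene of 15.1 to 47.2 against 6.54 to 10.5. Hyperoxia library 2 lay closest to air in a trend with transcript length. Over the 4433 genes with the longest transcripts its median log2 difference from the air mean was 0.03, against 0.19 and 0.25 in hyperoxia libraries 1 and 3. Xist, which marks female tissue, was at 13962 in air library 3 and 19417 in hyperoxia library 1, and at most 40.8 in the other 4 libraries. Without hyperoxia library 2, 7756 genes were called over the whole table in place of 5425, and 5 members in place of 1.

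Per kilobase (kb) of exon, the 10 members covered a wide range. The mean normalized count per kb over the 6 libraries was 1177 for Klf9 and 818 for Klf13. A middle group followed with 282 for Klf10, 264 for Klf6, 260.0 for Klf2 and 239.7 for Klf15. The lowest were Klf3 at 132, Klf7 at 125, Klf4 at 79.8 and Klf5 at 29.6. Klf9 was above Klf13, and Klf13 above Klf10, in 6 of 6 libraries with ranges that did not overlap, and so was Klf15 above Klf3. The ranges of Klf10, Klf6, Klf2 and Klf15 overlapped from each to the next, as did those of Klf3, Klf7 and Klf4. Klf4 lay above Klf5 in 6 of 6 libraries although the ranges over the libraries overlapped. The place of Klf3 depended on the length used. Its annotated exons cover 11243 bases, and with its longest transcript of 5221 bases its level was 283 per kb. Per kb of their own longest transcripts, Klf6 was close to it at 275 and Klf10 was higher at 388.

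**Figure D1:**
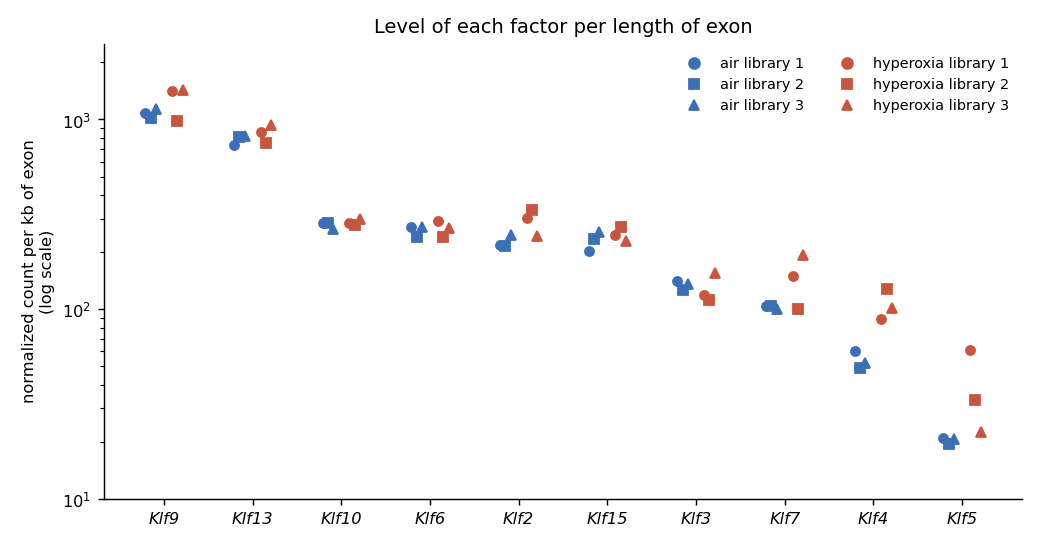
Normalized count per kb of exon (log axis) of the 10 Kruppel-like factors in the 3 air libraries (blue) and the 3 hyperoxia libraries (red), 1 point per library, in order of the mean over all 6. Klf9 and Klf13 stand apart at the top with means of 1177 and 818, and Klf5 is lowest at 29.6.

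The main question of the comparison was how hyperoxia from P2 to P14 changed mRNA in the hippocampus. Of the 10 members, 1 passed the test, Klf4, which rose in hyperoxia. The test was limma on log2 of the normalized count plus 1, hyperoxia minus air. P-values were adjusted by Benjamini and Hochberg over all 17778 genes, with a threshold of 0.05, and the test called 30.5% of all genes tested, 14.9% higher and 15.6% lower. The share of members called, 1 of 10, was thus not above that of the table. The log2 difference was above 0 in 9 of 10 members, of which Klf6 turned sign under 3 of 17 alternatives, against 49.3% of all genes, and its median over the members was 0.17 against -0.01 over all genes. At an unadjusted p under 0.05 the members were 4 of 10, against 42.7% of all genes. In 2 members, Klf4 and Klf5, every hyperoxia library lay above every air library, which held for 22.3% of all genes. No member lay wholly below air, where 23.8% of all genes did, and groups without overlap in either direction made up 46.1% of all genes. Each p-value sets the group difference against the spread within the groups, a spread that limma estimates in part from all genes tested. With 1 library per animal, that spread holds differences between animals and between libraries together.

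**Figure D2:**
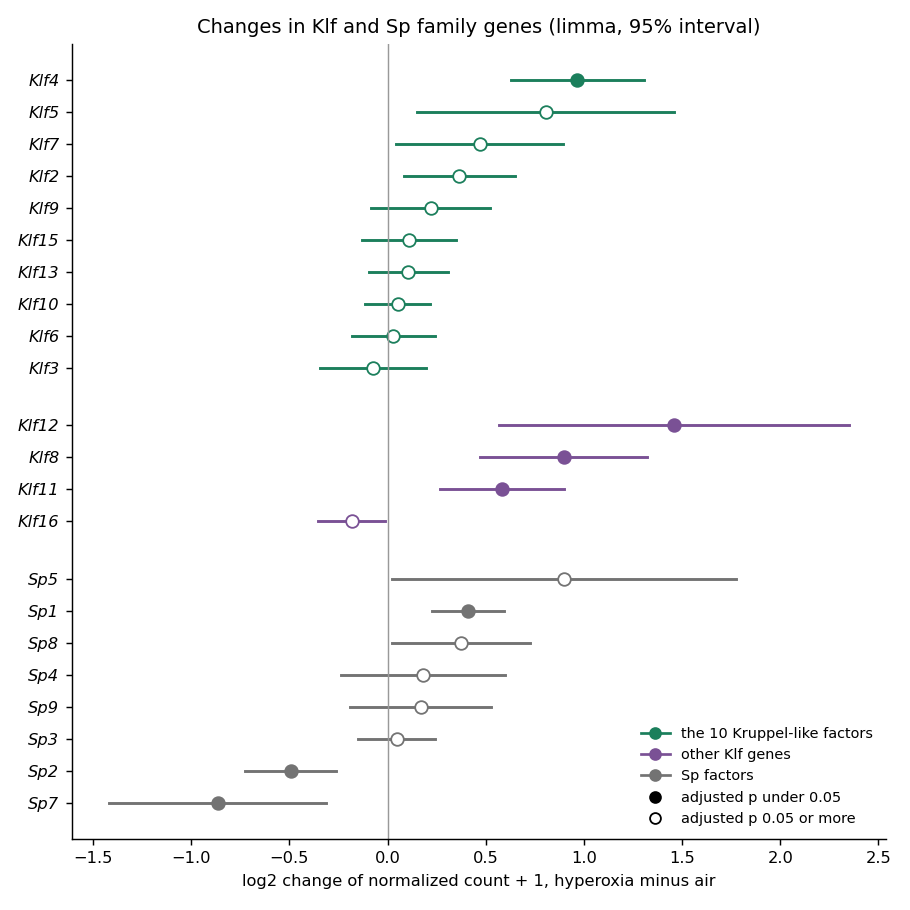
log2 difference of the normalized count plus 1, hyperoxia minus air (points), with 95% intervals from limma (lines), for the 10 members, 4 other Klf genes and 8 Sp factors, where filled points passed an adjusted p of 0.05. Klf4, Klf8, Klf11, Klf12 and Sp1 passed above 0, Sp2 and Sp7 passed below 0, and the intervals of Klf9, Klf15, Klf13, Klf10, Klf6 and Klf3 cross 0.

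Klf4, which acts in endothelial and myeloid cells and is 1 of the factors used to reprogram cells to pluripotency, was the member that rose. It lies at chr4:55527143-55532466 on the minus strand (GRCm38), with no exon of another annotated gene overlapping its exons. In air, libraries 1, 2 and 3 held a Klf4 normalized count of 185, 149 and 158, and in hyperoxia libraries 1, 2 and 3 it was 272, 388 and 309. All 3 hyperoxia libraries were above all 3 air libraries, and hyperoxia library 2 was the highest. The mean was 164 ± 18.7 in air and 323 ± 59.3 in hyperoxia (SD, n = 3 each), a ratio of 1.97. The log2 difference was 0.97 with a standard error (SE) of 0.15 and a 95% interval of 0.63 to 1.30 (limma, adjusted p = 0.0020). Klf4 passed under each of the 17 alternative settings, with log2 differences of 0.83 to 1.08 and adjusted p-values of 5.89e-07 to 0.0145.

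Klf2, the endothelial partner of Klf4 and a regulator of vessel tone and clotting, lies at chr8:72319033-72321656 on the plus strand of GRCm38. The normalized count of Klf2 was 401, 399.9 and 453 in the air libraries and 559, 619 and 449.8 in the hyperoxia libraries. Hyperoxia libraries 1 and 2 were above all air libraries, while hyperoxia library 3 was just under air library 3, so the groups overlapped. The mean was 418 ± 30.1 in air and 543 ± 85.9 in hyperoxia (SD, n = 3 each). The log2 difference of 0.37 (SE 0.13, 95% interval 0.08 to 0.65) narrowly missed the threshold (limma, adjusted p = 0.052). It passed under 5 of 17 alternatives, among them edgeR (adjusted p = 0.044) and DESeq2 (adjusted p = 0.027) on the recovered reads and limma on genes with a mean of at least 50 (adjusted p = 0.047). Without hyperoxia library 3 the log2 difference was 0.49 (limma, adjusted p = 0.0081). The Klf2 mRNA is short, with a longest transcript of 1847 bases, and rich in G and C (61.6%). With the trend on length and GC content removed from each library the log2 difference was 0.53 (limma, adjusted p = 0.00255). The range of adjusted p-values over the alternatives was 0.00255 to 0.16.

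Klf5, known for driving growth of epithelial and smooth muscle cells, lies at chr14:99298691-99315036 on the plus strand and was the member with the widest spread. The normalized count of Klf5 was 109, 101 and 108 in the air libraries and 316, 172 and 118 in the hyperoxia libraries. The air libraries lay close together, hyperoxia library 1 was far above them, and hyperoxia library 3 was only slightly above the highest air library. The mean was 106 ± 4.55 in air and 202 ± 103 in hyperoxia (SD, n = 3 each). The log2 difference was 0.81 (SE 0.29, 95% interval 0.15 to 1.46) and did not pass (limma, adjusted p = 0.062). It was 0.42 without hyperoxia library 1, so this library carried much of the difference. It passed under 5 of 17 alternatives, which included edgeR (adjusted p = 0.043), DESeq2 (adjusted p = 0.0067), and limma without hyperoxia library 2 (0.86, adjusted p = 0.046) or without hyperoxia library 3 (1.13, adjusted p = 0.00535). The highest adjusted p was 0.16.

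**Figure D3:**
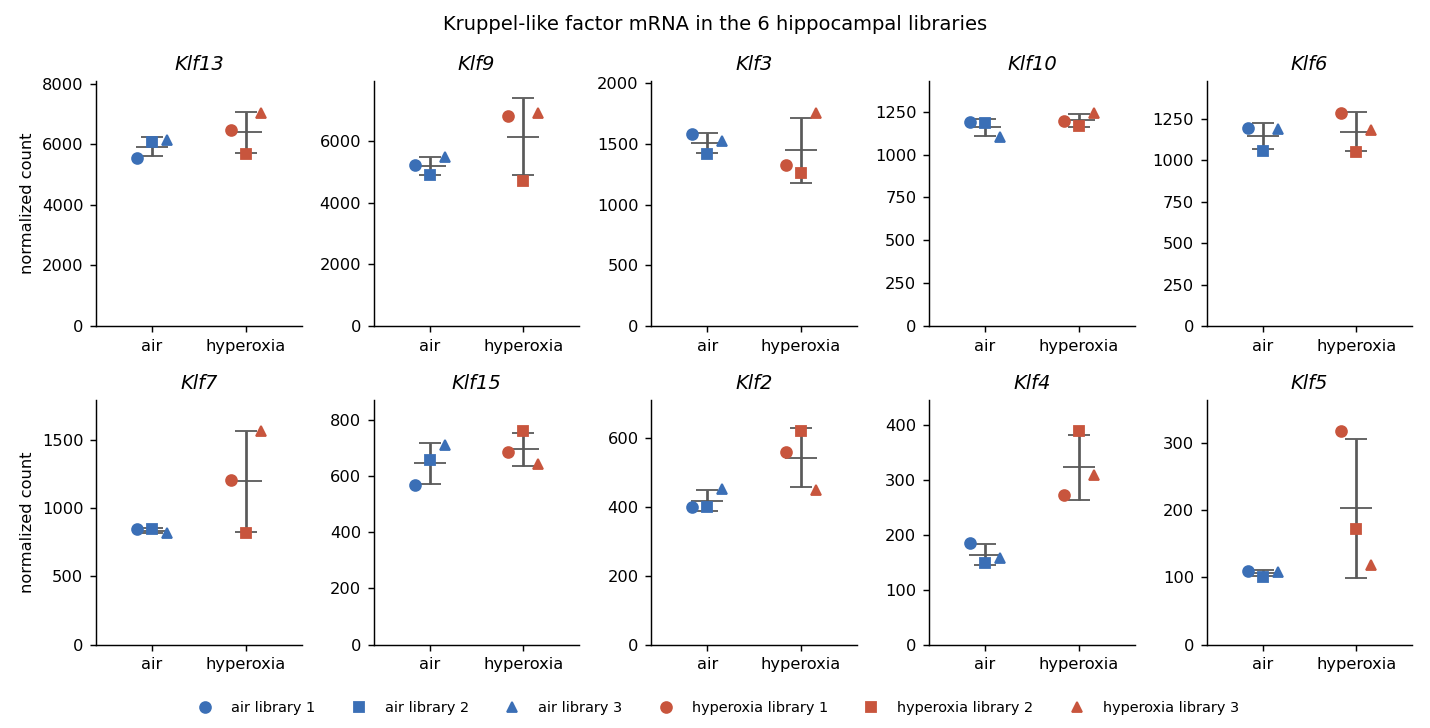
Normalized count of each of the 10 Kruppel-like factors in the 6 libraries (points, each panel with its own axis from 0), with the mean and SD of each group of 3 (bars). The groups are apart in Klf4 and Klf5 and overlap in the other 8 panels.

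Since Klf4 and Klf2 are known as endothelial genes, they were set beside 13 endothelial markers. Of these, 7 were called higher in hyperoxia and 2 lower, with a median log2 difference of 0.37, and none was at 0 in any library. Their summed normalized count was 11201 to 11554 in air and 12791 to 14188 in hyperoxia, without overlap. Hyperoxia library 2 was the highest of the 3 hyperoxia libraries in 10 of the 13 endothelial markers, as it was for Klf4 and Klf2. This was not particular to endothelial genes. It also held for 8 of 9 microglial, 7 of 9 astrocyte and 5 of 7 tested pericyte and smooth muscle markers, and for 40.2% of all genes. Vwf, the clotting factor of endothelial cells, had the largest rise (log2 0.75, SE 0.11, limma adjusted p = 0.0015), followed by the VEGF receptor gene Kdr (log2 0.61, SE 0.09, limma adjusted p = 0.0016). The capillary genes Ly6c1 (log2 -0.96, limma adjusted p = 0.00098) and Slco1a4 (log2 -0.36, limma adjusted p = 0.0081) fell. Slco1a4 lost its call without air library 2 (log2 -0.31, limma adjusted p = 0.051). In bulk tissue, fewer or more cells of a type and less or more RNA per cell cannot be told apart.

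Per 1000 endothelial marker counts, Klf4 was at 16.5, 13.3 and 13.7 in the air libraries and at 21.3, 27.4 and 23.4 in the hyperoxia libraries. The groups did not overlap on this scale (mean log2 difference 0.73, exact permutation test, two-sided p = 0.1, the smallest that 3 against 3 can give, adjusted p = 0.25 over the 5 such ratios computed). Klf2 was at 35.8, 35.7 and 39.2 in the air libraries and at 43.7, 43.6 and 34.0 in the hyperoxia libraries, which overlapped, since hyperoxia library 3 was the lowest of all 6 (mean log2 difference 0.12, exact permutation p = 0.4, adjusted p = 0.4). Microglia also express both factors. Of 9 microglial markers 2 were called higher and none lower, none was at 0, and their summed count was 12391 to 12732 in air and 12634 to 14326 in hyperoxia. Per 1000 microglial marker counts the mean log2 difference was 0.90 for Klf4 (exact permutation p = 0.1, adjusted p = 0.25, no overlap) and 0.30 for Klf2 (exact permutation p = 0.2, adjusted p = 0.333). Of 8 pericyte and smooth muscle markers, 7 were tested and 1 was called, Rgs5 (log2 0.38, SE 0.08, limma adjusted p = 0.0075), and their summed count was 12077 to 12394 in air and 12999.5 to 15343 in hyperoxia. Rgs5 alone went from a mean of 6332 in air to 8251 in hyperoxia, and the median log2 difference of the 7 tested was 0.08. The part of vessel cell number in the Klf2 difference was not tested.

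**Figure D4:**
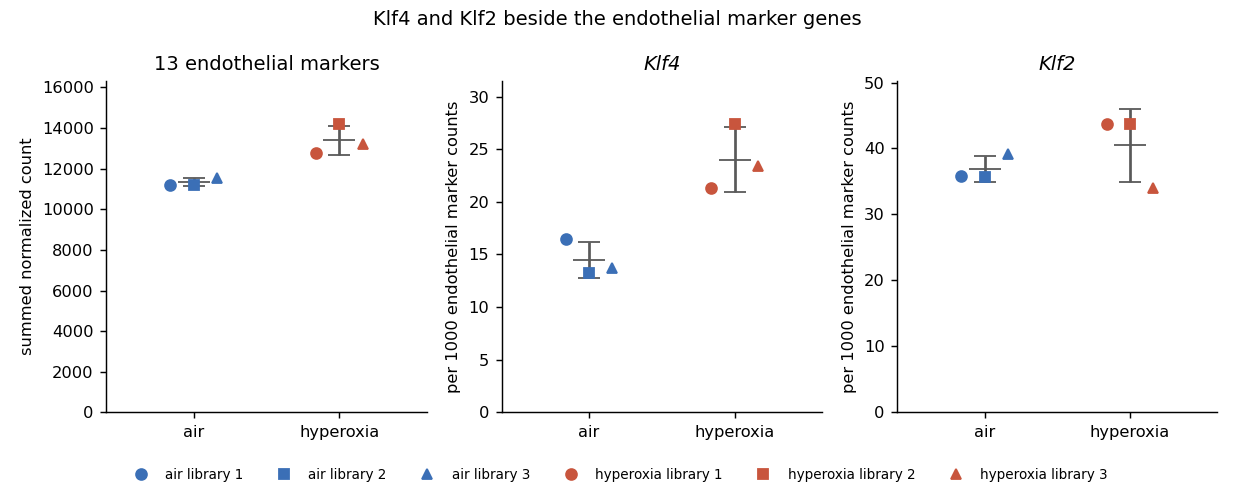
Summed normalized count of 13 endothelial markers, and Klf4 and Klf2 per 1000 of these counts, in the 6 libraries (points) with the mean and SD of each group of 3 (bars), all axes from 0. The marker sum and the Klf4 ratio are higher in every hyperoxia library than in every air library, while the Klf2 ratio overlaps.

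Genes known to be controlled by KLF2 and KLF4 in endothelial cells include activated and repressed ones, so their list has no single direction to follow. Of 6, 2 rose, 1 fell and 3 (Nos3, Thbd and Vcam1) did not pass, with a median log2 difference of 0.30. Edn1, the gene of the vasoconstrictor endothelin-1, which KLF2 is known to repress, rose from 104 ± 15.5 to 343 ± 49.6 (SD, n = 3 each), a log2 difference of 1.71 (SE 0.15, limma adjusted p = 0.00029). Icam1, an adhesion gene of activated endothelium, rose from 74.4 ± 4.07 to 138 ± 27.0 (SD, n = 3 each; log2 0.86, SE 0.17, limma adjusted p = 0.0050). S1pr1, the sphingosine-1-phosphate receptor gene that KLF2 is known to activate, fell (log2 -0.29, SE 0.07, limma adjusted p = 0.015), and it lost its call without any 1 of the air libraries or hyperoxia library 1 (adjusted p = 0.055 to 0.069). Its mean count in air was 6857, against 11201 to 11554 for all 13 endothelial markers summed. Which cells carried the mRNA of S1pr1 was not tested, so its fall cannot be placed in endothelial cells.

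Of the route that induces Klf2 and Klf4, 7 genes were tested, of which 2 were called higher and 3 lower. Mef2c, a MEF2 factor that is also abundant in neurons and microglia, was at 4075, 3887 and 3809.9 in the air libraries and at 14434, 8229.6 and 6644 in the hyperoxia libraries. All hyperoxia libraries were well above air, library 1 most of all (log2 1.24, SE 0.23, limma adjusted p = 0.0039). The kinase gene Map3k2 rose (log2 0.51, limma adjusted p = 0.041). Its call was lost in 8 of 17 alternatives, namely without any 1 of the air libraries, hyperoxia library 1 or hyperoxia library 3 (adjusted p = 0.081 to 0.143), under limma without the trend (adjusted p = 0.11), with the sex term (adjusted p = 0.0554) and with length and GC content corrected (log2 0.12, adjusted p = 0.27). Mapk7, which encodes ERK5 itself, fell (log2 -0.36, SE 0.09, limma adjusted p = 0.014), as did Mef2d (log2 -0.28, limma adjusted p = 0.033). Both lost their call without any 1 of the air libraries, Mapk7 also without hyperoxia library 1 and Mef2d also under limma without the trend (adjusted p = 0.0502 to 0.135).

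The genes whose library-by-library pattern lay nearest to Klf4 were Ccdc80, mt-Co3 and Icam1, with a root mean square difference of 0.07, 0.07 and 0.10 in log2 units over the 6 libraries after each gene was centred on its mean. Ccdc80, a secreted matrix protein gene, was at 276, 246 and 251 in the air libraries and 434, 556 and 479 in the hyperoxia libraries (log2 0.92, SE 0.11, limma adjusted p = 0.00093). Ccdc80 was chosen for its likeness to Klf4 over these libraries, so their shared highest value in hyperoxia library 2 is not a separate result. mt-Co3, a mitochondrial gene of cytochrome c oxidase, was counted only at 12.2 to 32.8 per library, and lost its call without air library 2 (limma, adjusted p = 0.0573).

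Of the members known for axon growth other than Klf4, none passed. Klf7, which promotes axon growth in several kinds of neuron, lies at chr1:64029447-64122282 on the minus strand. Its exons are overlapped by exons of 2 annotated genes of the other strand, Gm26649 over 3196 bases and Gm13748. The normalized count of Klf7 was 845, 849.7 and 815 in the air libraries and 1211, 819 and 1564 in the hyperoxia libraries. Hyperoxia libraries 1 and 3 were above air, while library 2 lay within the air range. The mean was 837 ± 18.7 in air and 1198 ± 373 in hyperoxia (SD, n = 3 each), with a log2 difference of 0.47 (SE 0.19, 95% interval 0.04 to 0.89, limma adjusted p = 0.088). Without hyperoxia library 2 it was 0.72 (limma, adjusted p = 0.000334), and DESeq2 also called it (log2 0.53, adjusted p = 0.0155). Klf7 has a long transcript of 7662 bases, and with length and GC content corrected the log2 difference was 0.23 (limma, adjusted p = 0.20).

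Klf6, induced by injury and a promoter of axon regrowth, differed little. Its normalized count was 1197, 1058 and 1186 in the air libraries and 1285, 1053 and 1180.45 in the hyperoxia libraries, and the groups overlapped almost wholly. A log2 difference of 0.03 was measured (SE 0.09, 95% interval -0.18 to 0.24, limma adjusted p = 0.83), and its sign turned without air library 2 (-0.03), without hyperoxia library 1 (-0.04) and with length and GC content corrected (-0.09).

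Klf9, a factor that thyroid hormone and glucocorticoids induce as neurons mature, was the member with the most mRNA per kb. It lies at chr19:23141226-23168134 on the plus strand. Klf9 had a normalized count of 5234, 4893 and 5470.0 in the air libraries and 6799, 4713 and 6906 in the hyperoxia libraries. Hyperoxia library 2 was the lowest of all 6, while libraries 1 and 3 were above every air library. The mean was 5199 ± 290.3 in air and 6140 ± 1236 in hyperoxia (SD, n = 3 each), with a log2 difference of 0.22 (SE 0.13, 95% interval -0.08 to 0.52, limma adjusted p = 0.24). Without hyperoxia library 2 the log2 difference was 0.40 (limma, adjusted p = 0.000637), the only alternative of 17 under which Klf9 passed.

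Klf13, a close relative of Klf9 and a partner of the corepressor Sin3, was next in level. Klf13 had a normalized count of 5551, 6073 and 6139 in the air libraries and 6480.3, 5663 and 7033 in the hyperoxia libraries. As in Klf9, hyperoxia libraries 1 and 3 were above every air library, while library 2 lay within the air range of Klf13. For Klf13 the log2 difference was 0.11 (SE 0.09, 95% interval -0.10 to 0.31, limma adjusted p = 0.40). Without hyperoxia library 2 it was 0.19 (limma, adjusted p = 0.040).

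Klf15, a glucocorticoid-induced regulator of metabolism that astrocytes express in brain, did not pass in any of the 17 alternatives. Klf15 had a normalized count of 567, 654 and 710.4 in the air libraries and 684, 757 and 641 in the hyperoxia libraries, and the ranges overlapped. Klf15 differed by 0.11 on the log2 scale (SE 0.11, 95% interval -0.13 to 0.35, limma adjusted p = 0.46). The summed count of 9 astrocyte markers was 206204 to 216756 in air and 242545 to 259888 in hyperoxia, with 3 markers called higher and 2 lower. The largest of the 9, Slc1a2, went from a mean of 104640 in air to 149380 in hyperoxia, while the median log2 difference of the 9 was -0.03. The sum, and the Klf15 ratio built on it, thus follow Slc1a2 more than the markers in general. Per 1000 astrocyte marker counts Klf15 gave a mean log2 difference of -0.13 (exact permutation p = 0.4, adjusted p = 0.4).

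The hormone side of Klf9, Klf13 and Klf15 was described through genes known to respond to the same hormones. Of 10 glucocorticoid targets, 1 rose (Pdk4, log2 0.46, limma adjusted p = 0.012) and 3 fell. The falls included the clock gene Per1 (log2 -0.40, limma adjusted p = 0.0086) and the signalling inhibitor gene Errfi1 (log2 -0.35, limma adjusted p = 0.0084). The median log2 difference of the list was 0.01, against -0.01 over all genes. Pdk4 lost its call without air library 2 (log2 0.44, limma adjusted p = 0.055). Among 4 receptor genes for these hormones, the thyroid hormone receptor gene Thrb (log2 0.73, limma adjusted p = 0.0029) and the glucocorticoid receptor gene Nr3c1 (log2 0.30, limma adjusted p = 0.0098) rose and 2 did not pass. Nr3c1 lost its call with length and GC content corrected (log2 0.06, limma adjusted p = 0.52) and without air library 1 (limma, adjusted p = 0.054). Of 8 genes of thyroid hormone handling and response, 4 rose and 2 fell. Dio2, which makes active hormone in astrocytes, rose (log2 0.76, limma adjusted p = 0.00036), as did the hormone transporter gene Slco1c1 (log2 0.47, limma adjusted p = 0.0028). The neuronal gene Nrgn (log2 -0.89, limma adjusted p = 0.00054) and the myelin gene Mbp (log2 -0.73, limma adjusted p = 0.010) fell. Mbp lost its call under quantile normalization (log2 -0.425, limma adjusted p = 0.065) and without air library 2 (limma, adjusted p = 0.053), and 7 of 8 oligodendrocyte markers were called lower.

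Klf10 and Klf3 complete the 10 members. Klf10, known as an early gene of transforming growth factor beta, was the steadiest, with a normalized count of 1192, 1184 and 1102 in the air libraries and 1193, 1167 and 1242 in the hyperoxia libraries. Klf10 differed by 0.05 on the log2 scale (SE 0.07, 95% interval -0.11 to 0.22, limma adjusted p = 0.63), and it did not pass in any of the 17 alternatives. Klf3, a repressor that works through CtBP, has exons that overlap those of the antisense gene Gm20033 over 404 bases. Its normalized count was 1584, 1420.6 and 1524 in the air libraries and 1329, 1260.1 and 1755 in the hyperoxia libraries. Hyperoxia libraries 1 and 2 were below every air library and library 3 was above them all. The log2 value of hyperoxia minus air was -0.07 (SE 0.12, 95% interval -0.34 to 0.19, limma adjusted p = 0.67), and without hyperoxia library 2 it was 0.02.

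Across the members, the 3 hyperoxia libraries did not move together. Hyperoxia library 2 was the lowest of the 3 in 6 members (39.3% of all genes) and the highest in Klf2, Klf4 and Klf15 (40.2% of all genes). Hyperoxia library 3 was the highest in 5 members, against 37.1% of all genes. When hyperoxia library 2 was left out, Klf4, Klf5, Klf7, Klf9 and Klf13 were called, against 43.6% of all genes, and when hyperoxia library 3 was left out, Klf2, Klf4 and Klf5 were called, against 28.0%. With edgeR 3 members were called (30.9% of all genes) and with DESeq2 4 (31.6%). Limma called 2 members, Klf2 and Klf4, on genes with a mean of at least 50 (36.5% of these genes) and also with length and GC content corrected (34.9%), and 2, Klf4 and Klf5, with a term for sex (27.2%). Each member called in these settings was higher in hyperoxia.

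**Figure D5:**
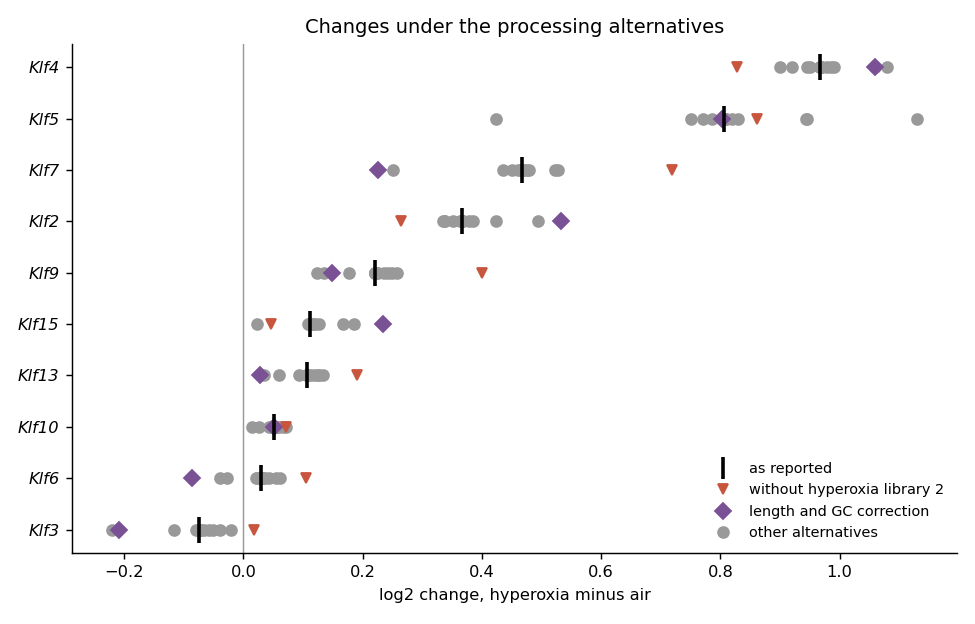
log2 difference of each member, hyperoxia minus air, as reported (bars) and under the 17 alternatives (points). Leaving out hyperoxia library 2 (triangles) raised the difference of Klf7 to 0.72 and of Klf9 to 0.40, correcting length and GC content (diamonds) lowered Klf7 to 0.23 and raised Klf2 to 0.53, and Klf4 kept a difference of at least 0.83 throughout.

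The rest of the family was read beside these 10. Of 6 other Klf genes in the table, 4 were tested and 3 were called, all higher. Klf8, a repressor that works through CtBP, rose from 112 ± 11.9 to 213 ± 51.8 (SD, n = 3 each), a log2 difference of 0.90 (SE 0.19, limma adjusted p = 0.0075), and passed under each of the 17 alternatives. Klf11, a Sin3 partner close to Klf10, rose from 145 ± 16.1 to 219 ± 26.6 (SD, n = 3 each; log2 0.58, SE 0.14, limma adjusted p = 0.013). It lost its call without air library 3 (log2 0.49, adjusted p = 0.054) and without hyperoxia library 1 (log2 0.53, adjusted p = 0.055). Klf12, a repressor related to Klf3 and Klf8, was at 65.0, 59.0 and 93.4 in the air libraries and 239, 94.0 and 341 in the hyperoxia libraries. Hyperoxia library 2 lay barely above air library 3, and the log2 difference was 1.46 (SE 0.40, limma adjusted p = 0.021). Klf12 lost its call without air library 1, air library 2 or hyperoxia library 1 (log2 1.32 to 1.40, adjusted p = 0.080 to 0.085) and under limma without the trend (adjusted p = 0.0736). Klf16 was lower in each hyperoxia library than in each air library, 1301 ± 72.5 in air against 1145 ± 34.4 (SD, n = 3 each), but did not pass (log2 -0.18, SE 0.08, limma adjusted p = 0.094), except without hyperoxia library 2 (log2 -0.21, adjusted p = 0.038). The erythroid factor gene Klf1 (5.13 to 10.2 per library) and Klf14 were under the filter, and Klf17 and Klf18 were not analysed here.

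The Sp factors, which share the DNA-binding fingers of the family, moved in both directions. Of 8 in the table, 1 was called higher and 2 lower. Sp1, a widely expressed GC box factor, rose from 754 ± 31.4 to 1003 ± 60.6 (SD, n = 3 each; log2 0.41, SE 0.08, limma adjusted p = 0.0056). Its call was lost with length and GC content corrected (log2 0.145, limma adjusted p = 0.136). Sp2 fell from 851 ± 79.0 to 604 ± 63.2 (SD, n = 3 each; log2 -0.49, SE 0.10, limma adjusted p = 0.0073). Sp7 fell (log2 -0.87, SE 0.25, limma adjusted p = 0.026), and lost its call without air library 2, air library 3 or hyperoxia library 1 (log2 -0.875 to -0.647, adjusted p = 0.080 to 0.0985) and under limma without the trend (adjusted p = 0.0589). The log2 differences of Sp3 (0.05), Sp4 (0.18), Sp5 (0.90), Sp8 (0.37) and Sp9 (0.17) did not pass. Without hyperoxia library 2, Sp4 passed (log2 0.44, adjusted p = 0.0015), and without hyperoxia library 3, Sp5 passed (log2 1.30, adjusted p = 0.019). Sp8 passed under limma without the trend (adjusted p = 0.0351). Sp6 was not analysed here.

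The mRNA of proteins known to work with or on these factors was counted as well, against the 30.5% of all genes called. Of 10 corepressor and coactivator genes, 2 fell, the deacetylase gene Hdac1 (log2 -0.41, SE 0.09, limma adjusted p = 0.0079) and Sin3b (log2 -0.36, SE 0.06, limma adjusted p = 0.0030), and none rose. Sin3b, whose protein KLF13 and KLF10 bind, went from 4291 ± 42.7 to 3340.03 ± 49.2 (SD, n = 3 each), with every hyperoxia library below every air library. Of 6 ubiquitin ligase genes, Wwp1, whose protein is known to act on KLF2 and KLF5, rose from 869.8 ± 71.0 to 1401 ± 116 (SD, n = 3 each; log2 0.69, SE 0.09, limma adjusted p = 0.0012), while Stub1 fell (log2 -0.37, limma adjusted p = 0.0087).

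Several Kruppel-like factors are early response genes in other settings, so the members were read beside 17 immediate early genes. Of these, by the group names of the columns, 9 fell and 1 rose, with a median log2 difference of -0.63, against 0.17 for the members and -0.01 for all genes. The tables and the Discussion of the paper that reported these data give Arc mRNA as higher in hyperoxia, and which label is right was not settled. Arc, the synaptic early gene, fell from 5268 ± 183 to 1690.2 ± 143 (SD, n = 3 each; log2 -1.64, SE 0.08, limma adjusted p = 4.7e-05), Npas4 fell by 1.04 on the log2 scale (limma, adjusted p = 0.00090), and Fosl2 rose by 0.49 (limma, adjusted p = 0.0044). Klf2, Klf4, Klf6 and Klf10, the members most often counted as early response genes, had log2 differences of 0.37, 0.97, 0.03 and 0.05.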

How the data were processed

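RNA from the left hippocampus of 3 air-exposed and 3 hyperoxia-exposed mice was measured by sequencing, 1 library per mouse. The libraries were strand-specific and polyA-selected. The submitters' processing notes name FastQC, STAR 2.5.3a, HTSeq and DESeq2, with no role given. Genome build, annotation and strand setting were not given in the sources used here. Per gene and library, the deposited table holds 1 signal, the reads on the gene over the size factor that the authors gave the library. A second deposited table holds the authors' own comparison (log2 fold changes, standard errors and p-values) and was not used. Groups were taken from the labels and matched to columns by the group in the column name.

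Values were whole multiples of 1 read in 100% of cases within 0.01, which recovered 30384052 to 38746972 reads per library. No replicate pair was a repeat of another. Log2 of the normalized count plus 1 was fitted by limma 3.58.1 in R 4.3.3, with its mean-variance trend, on 17778 genes with a mean of at least 10, two-sided, with Benjamini-Hochberg adjustment. This scale understates changes of low genes. On the recovered reads edgeR 4.0.16 called 5501 genes and DESeq2 1.42.0 called 5611. The other alternatives were limma without the trend, TMM scaling, quantile normalization, a pseudocount of 0.5 or 5, no filter or 1 at a mean of 50, a correction per library for a smooth effect of transcript length and GC content (mgcv 1.9.3, 17735 genes), each library left out in turn and, chosen after seeing the data, a term for sex read from Xist. With 1 library left out, its group of 2 was assumed to vary like the others. The limma script was tested on simulated data. Exact permutation tests were two-sided over 3 against 3 libraries, where the smallest p is 0.1. Sums and ratios over markers carry no model.

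Positions, exon lengths and overlaps came from GENCODE M21 on GRCm38, which holds 99.7% of the gene identifiers, and sequences from RefSeq on GRCm38.p6. The members and gene lists were chosen with earlier results of these data known. The genes named were the 10 members, every other Klf and Sp gene, from each of the other lists up to 2 called genes with the largest rise and up to 2 with the largest fall, marker genes beside the members, and the 3 genes nearest in pattern to Klf4. No member fell, so no pattern was sought for a member that fell. Genes named from a list as not called were chosen after their values were seen. Some genes that this rule names are not reported here.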

Additional observations from a re-analysis of the deposited data

How the results depend on the processing

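As reported, 1 member was called. The count was 3 with edgeR, 4 with DESeq2, 2 with a mean of at least 50, 2 with length and GC content corrected, 2 with the sex term, and 1 to 5 with 1 library left out, highest without hyperoxia library 2 (5) and next without hyperoxia library 3 (3). Klf4 was among those called in each of these settings. The count over all genes, 5425 as reported, ranged from 3048 to 7756 with 1 library left out, and was lowest without air library 1 (3048), air library 2 (3087) and hyperoxia library 1 (3378). The log2 difference turned sign for Klf3 without hyperoxia library 2 (0.0186), for Klf6 with length and GC content corrected (-0.0858), without air library 2 (-0.0273) and without hyperoxia library 1 (-0.0388), for Sp3 with length and GC content corrected (-0.101) and without hyperoxia library 3 (-0.0398), and for Sp4 with length and GC content corrected (-0.0567). With 1 library left out, the log2 difference ranged from -0.22 to 0.0186 for Klf3, from -0.0388 to 0.105 for Klf6 and from -0.0398 to 0.106 for Sp3. None of the differences whose sign turned passed there, and the cause was not tested. No paired analysis was possible because the labels number the animals from 1 to 6, so that the groups share no number, and the column numbers are not animal numbers. With 3 libraries a group, single outlying libraries were not tested for. The counts of the 10 members were far above the limit that 3 reads set. Each animal gave 1 library, so the spread between animals cannot be told apart from that between libraries.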

Other observations

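Lists of other cell types and brain regions were counted in the same fit. Of 6 oligodendrocyte precursor markers, 2 were called higher, Pdgfra (log2 0.58, limma adjusted p = 0.00059) and Cspg4 (log2 0.41, limma adjusted p = 0.0076), while Mobp (log2 -1.09, limma adjusted p = 0.0019) and Ermn (log2 -0.97, limma adjusted p = 0.0065) fell most among the myelin genes. Of 10 general neuronal markers, 2 were called higher, Stmn2 (log2 0.41) and Tubb3 (log2 0.31), and 3 lower, among them Rbfox3 (log2 -0.46) and Snap25 (log2 -0.40). Of 9 genes of hippocampal formation neurons, 1 was called higher, Mpped1 (log2 0.35), and 4 lower, with C1ql2 (log2 -1.24) and Neurod2 (log2 -0.71) falling most. The microglial gene Cx3cr1 (log2 0.42) and the astrocyte genes Aldh1l1 (log2 0.53) and Aqp4 (log2 0.53) were called higher, and the astrocyte genes S100b (log2 -0.40) and Aldoc (log2 -0.37) lower. Of 17 alternatives, the call was lost in 10 for S100b (adjusted p up to 0.149), 6 for Aldoc (up to 0.167), 5 for Mpped1 (up to 0.0968), 4 for Tubb3 (up to 0.118) and 3 for Snap25 (up to 0.2), each of them with single libraries left out among these.

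The choroid plexus markers summed to 577 to 1442 in the air libraries and to 506 to 8242 in the hyperoxia libraries, with Ttr at 7454 in hyperoxia library 3, and 1 of 7 was called, Aqp1 (log2 1.61). Of 6 erythroid genes, Hba-a1 was called higher (log2 0.90) and Hbb-bt lower (log2 -0.51). Hbb-bt lost its call in 7 of 17 alternatives, with an adjusted p of 0.168 without air library 2, and Hba-a1 in 2, without air library 1 (adjusted p = 0.0583) and under limma without the trend. Near-identical copies among the alpha globin genes, and among the beta globin genes, can share reads.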
